A study of Mus musculus with 6 samples.

Results

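Lactate dehydrogenase and the genes that admit pyruvate to the mitochondrion were examined in the primary somatosensory (S1) cortex of mice with or without whisker stimulation (WS). The group was chosen by name and holds 10 genes of the 14824 listed in the deposited table. Its members are the lactate dehydrogenase subunits Ldha and Ldhb, the mitochondrial pyruvate carrier subunits Mpc1 and Mpc2, the pyruvate dehydrogenase E1 subunits Pdha1 and Pdhb, and the pyruvate dehydrogenase kinases Pdk1, Pdk2, Pdk3 and Pdk4. All 10 were listed and all 10 passed the filter on low counts, as did 13747 genes in all. The study profiled bulk RNA from the S1 cortex of wild-type C57B6 mice at postnatal day 21, with 3 stimulated (WS) and 3 non-stimulated (NS) libraries. Per the study's methods, the whiskers of one side of the snout were brushed daily, RNA was taken 90 min after the last stimulation, and the S1 cortex of the side without stimulation served as the control. The figure legends give 3 male mice for the RNA-seq, so the NS and WS libraries may come from both sides of the same brains, but no source used here says which libraries share an animal, and a p-value here measures the spread between these libraries. RNA was accepted at an integrity number above 2, a permissive limit, and the values of single libraries were not given in the sources used here.

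Pyruvate is the end product of glycolysis and stands at a branch point. In the cytosol, lactate dehydrogenase, a tetramer of A and B subunits encoded by Ldha and Ldhb, interconverts pyruvate and lactate. Tetramers rich in the A subunit are usually associated with lactate production and glia, and those rich in the B subunit with lactate use and neurons. Pyruvate that is not turned into lactate enters the mitochondrial matrix through the carrier formed by MPC1 and MPC2, and the pyruvate dehydrogenase complex then converts it to acetyl-CoA for the tricarboxylic acid (TCA) cycle. The 4 kinases phosphorylate the E1 alpha subunit and switch the complex off. Ldha and Pdk1 are textbook targets of the hypoxia-inducible factor HIF1, and Pdk4 is a textbook target of PPAR and FOXO factors. The study asked how whisker stimulation acts on blood vessel formation through lactate transport and HIF1-dependent Vegfa, and the genes described here encode the enzymes that form lactate and commit pyruvate to oxidation.

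The 6 libraries held between 15660395 and 17276168 counts. Levels are given as CPM (a gene's share of the counts of its library, scaled to a common total) after scaling by TMM factors, which lay between 0.9774 and 1.011. The cell types of a cortical sample were present in each library. The summed level of 10 neuronal markers was 8772 to 9036 CPM in NS and 8431 to 8979 CPM in WS, and that of 10 astrocyte markers was 4587 to 5100 CPM in NS and 4810 to 5935 CPM in WS. The sum of 15 endothelial markers ran from 476.9 to 540.2 CPM in NS and from 508.9 to 593.1 CPM in WS, that of 12 pericyte and smooth muscle markers from 307.9 to 311.3 CPM and from 316.1 to 367.1 CPM, that of 9 oligodendrocyte markers from 8378 to 12060 CPM and from 9978 to 13330 CPM, and that of 8 microglial markers from 452.7 to 474.0 CPM and from 479.4 to 491.5 CPM. The sums of 9 choroid plexus markers (495.0 to 887.5 CPM in NS and 304.3 to 1012 CPM in WS) and of 5 blood genes (421.6 to 766.4 CPM and 500.9 to 634.0 CPM) overlapped widely. WS replicate 3 had the highest astrocyte, endothelial, pericyte and oligodendrocyte sums and the lowest neuronal sum of the 6 libraries. The microglial and the pericyte sums did not overlap between the groups and were higher in WS. The fitted log2 fold change was above 0 for 10 of 10 astrocyte, 15 of 15 endothelial, 10 of 12 pericyte, 9 of 9 oligodendrocyte, 7 of 8 microglial and 5 of 5 blood markers, for 4 of 10 neuronal and 3 of 9 choroid plexus markers, and for 53.0% of all genes tested, and 0 markers of any list passed the test. In bulk tissue fewer cells of a type and less RNA per cell cannot be told apart.

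None of the 10 genes passed the test for a difference between WS and NS. In the edgeR quasi-likelihood test over 13747 genes, the adjusted p was 0.9998 for each of them, and 0 of 10 reached an unadjusted p under 0.05 against 1.19% of all genes tested. Across all genes, 5 had an adjusted p under 0.05, which is 0.0364% of those tested. At an adjusted p under 0.05 with a log2 fold change above 1, 4 genes were called higher in WS, which is 0.0291% of those tested, and 0 were called lower, with 45 genes lower at an unadjusted p under 0.05 and 0 called lower by DESeq2. Of the 10 members, 3 had a fitted log2 fold change above 0 and 7 below, with a median of -0.038 against 0.007 over all genes tested. The 95% intervals of the 10 fold changes all lay between 0.80-fold (the lower end for Mpc2) and 1.35-fold (the upper end for Pdk4), so a doubling or a halving lay outside each of them.

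**Figure D1:**
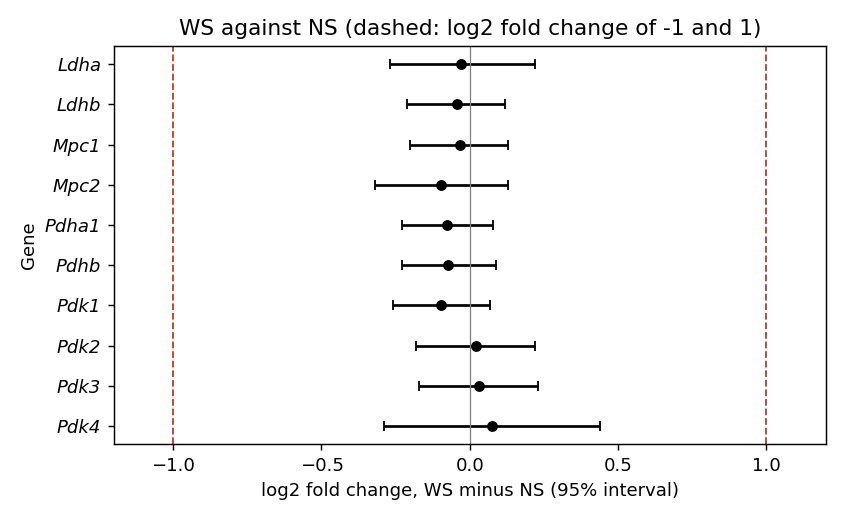
Fitted log2 fold change of WS minus NS for each gene (points) with its 95% interval from edgeR (bars), on a linear axis; dashed lines mark log2 fold changes of -1 and 1. All 10 intervals contain 0 and none reaches a dashed line.

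Ldhb was the more abundant subunit transcript of lactate dehydrogenase. Ldhb (chr6:142490249-142507957, minus strand, 8 exons, GRCm38) measured 493.7, 472.0 and 524.7 CPM in NS replicates 1, 2 and 3 and 490.6, 494.2 and 462.1 CPM in WS replicates 1, 2 and 3. The ranges of the groups overlapped, with means of 496.8 ± 26.5 CPM (SD, n = 3) and 482.3 ± 17.6 CPM (SD, n = 3). The log2 fold change was -0.04 (SE 0.08, 95% interval -0.21 to 0.12, unadjusted p = 0.579 by edgeR).

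Ldha (chr7:46841475-46855627, plus strand, 8 exons), which encodes the A subunit, measured 330.4, 314.3 and 315.3 CPM in NS and 294.6, 378.6 and 268.6 CPM in WS. The stimulated libraries stood on both sides of the controls, with WS replicate 2 above all 3 NS libraries and WS replicates 1 and 3 below them. Mean levels were 320.0 ± 9.02 CPM without and 313.9 ± 57.5 CPM with stimulation (SD, n = 3 each). The log2 fold change was -0.03 (SE 0.11, 95% interval -0.27 to 0.22, unadjusted p = 0.807 by edgeR). Ldha had the largest coefficient of variation of the 10 members in WS, with Pdk4 next to it at 17.2%. Its coefficient of variation was 2.82% in NS and 18.3% in WS, where counting error alone gives 1.40%. Among 10876 genes whose mean count was 100 or more, the median coefficient of variation was 6.08% in NS and 8.89% in WS, and the WS coefficient of Ldha exceeded that of 90.3% of these genes. Without WS replicate 2 the log2 fold change of Ldha became -0.19 (unadjusted p = 0.0608 by edgeR), and without WS replicate 3 it became 0.07. WS replicate 3, which had the lowest Ldha, also had the highest astrocyte marker sum (5935 CPM), and WS replicate 2, which had the highest Ldha, had the lowest astrocyte sum of the stimulated libraries (4810 CPM) with a neuronal sum of 8979 CPM against 8431 CPM in WS replicate 3. WS replicate 2 also had the highest choroid plexus sum of the 6 (1012 CPM). NS replicate 3 had the lowest astrocyte sum of the 6 (4587 CPM) with an Ldha of 315.3 CPM. The part of cell composition in the spread of Ldha was not tested.

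Because both subunits enter the same tetramer, their counts were compared within each library, which removes the scaling for depth. The Ldha to Ldhb ratio was 0.669, 0.666 and 0.601 in NS and 0.600, 0.766 and 0.581 in WS. The highest and the lowest ratio of the 6 were both in stimulated libraries, and WS was higher in 1 of 3 same-numbered pairs. The mean ratio was 0.645 ± 0.0385 without and 0.649 ± 0.102 with stimulation (SD, n = 3 each), and the mean log2 ratio differed by -0.000746 (SE 0.14, exact two-sided permutation test, p = 0.90, and 1.0 after Benjamini-Hochberg adjustment over 4 ratios). With 3 libraries against 3, the exact test cannot go below p = 0.10. Per kilobase of transcript, the A subunit made up 32.3 ± 1.32% of the lactate dehydrogenase transcripts without and 32.3 ± 3.34% with stimulation (SD, n = 3 each), from 30.0% in WS replicate 3 to 36.1% in WS replicate 2. This share depends on the transcript length used. In NS, Ldha stood at 181 and Ldhb at 381 CPM per kb of the principal transcript, against 96.7 and 316 with all annotated exons together.

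Ldha has many pseudogene copies in the mouse genome. A search of the GENCODE M21 transcripts found 24 other genes with at least 85% identity over at least 20% of the Ldha transcript, all processed pseudogenes at 86.6 to 95.9% identity over 23.8 to 56.9% of it, and 1 such copy of Ldhb, Gm5514 at 98.0% identity over 76.8%. None of these copies was among the listed genes, and how reads shared with them were counted is not given in the sources used here, so the absolute levels of Ldha and Ldhb are uncertain by the reads they share.

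The promoter sequences of Ldha, Ldhb and Pdk1 are shown because Ldha and Pdk1 are textbook HIF1 targets and Ldhb is the sister subunit of Ldha. Each is the 250 bases upstream of the first start listed for the gene in the RefSeq table (GRCm38.p6), at chr7:46845554-46845803 on the plus strand for Ldha, chr6:142507958-142508207 on the minus strand for Ldhb and chr2:71872974-71873223 on the plus strand for Pdk1. Capitals mark matches to ACGTG or GCGTG, the core letters of the hypoxia response element, on either strand.
Ldha: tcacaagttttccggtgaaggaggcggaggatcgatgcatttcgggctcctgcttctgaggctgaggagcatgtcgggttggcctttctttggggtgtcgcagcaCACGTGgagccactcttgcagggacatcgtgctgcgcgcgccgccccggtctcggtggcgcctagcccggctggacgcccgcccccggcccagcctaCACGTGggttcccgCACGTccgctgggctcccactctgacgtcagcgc
Ldhb: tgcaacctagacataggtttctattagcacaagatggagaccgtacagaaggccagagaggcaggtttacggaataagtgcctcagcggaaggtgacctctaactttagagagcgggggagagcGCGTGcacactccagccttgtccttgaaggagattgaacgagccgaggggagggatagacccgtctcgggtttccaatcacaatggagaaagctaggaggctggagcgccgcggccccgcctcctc
Pdk1: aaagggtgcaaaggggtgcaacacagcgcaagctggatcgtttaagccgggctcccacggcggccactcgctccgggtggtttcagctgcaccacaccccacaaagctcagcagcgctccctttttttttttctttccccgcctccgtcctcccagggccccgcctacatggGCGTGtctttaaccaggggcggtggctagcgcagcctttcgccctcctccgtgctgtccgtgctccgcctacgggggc
The Ldha promoter held 3 marked stretches, of which 2 spell CACGTG, a palindrome that matches ACGTG on both strands and is also the E-box of MYC and related factors. Ldhb and Pdk1 held 1 match each, to GCGTG. The table lists a second start for Ldha and for Pdk1, not printed here. The 250 bases before the second start of Ldha (chr7:46846832-46847081) held 1 match, to GCGTG, and no CACGTG, and those before the second start of Pdk1 (chr2:71874654-71874903) held 0 matches. Such short letters are common, since 38.6% of the 32851 mouse promoters of this length in the table held at least 1 match, 16.7% held at least 2 (a CACGTG counts as 2, one per strand), 16.6% held ACGTG and 6.02% held CACGTG. Before their first listed starts, Pdk3 held 4 matched stretches, Pdha1 held 3 and Pdhb held 2, so Ldha was not alone among the members in holding several. Among the members, CACGTG was found before the first listed start of Ldha and of Pdk2. These matches describe the sequence only, and no factor binding was measured.

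Neither carrier gene passed the test. Mpc1 (chr17:8282904-8297661, plus strand, 5 exons) measured 128.9, 122.3 and 139.2 CPM in NS and 122.2, 130.3 and 128.8 CPM in WS. Mpc2 (chr1:165460637-165481214, plus strand, 5 exons) measured 72.94, 66.97 and 78.76 CPM in NS and 70.92, 75.03 and 58.48 CPM in WS. The groups overlapped for both genes, and the low value of Mpc2 in WS replicate 3 was the lowest of the 6. Mpc1 had a log2 fold change of -0.03 (SE 0.08, 95% interval -0.20 to 0.13, unadjusted p = 0.667 by edgeR). Mpc2 had a log2 fold change of -0.10 (SE 0.10, 95% interval -0.32 to 0.13, unadjusted p = 0.370 by edgeR), which became 0.00 without WS replicate 3. The carrier works as a heterodimer of both proteins, so the Mpc1 to Mpc2 ratio was taken within libraries. It was 1.77, 1.83 and 1.77 in NS and 1.72, 1.74 and 2.20 in WS. Apart from WS replicate 3 the ratios of the other 5 libraries lay close together, and the difference of the mean log2 ratio was 0.07 (SE 0.12, exact two-sided permutation test, p = 1.0).

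Pyruvate dehydrogenase E1 is a heterotetramer of alpha and beta subunits. Pdha1 (chrX:160122209-160138413, minus strand, 11 exons), which encodes the alpha subunit that the kinases phosphorylate, measured 241.8, 232.0 and 228.2 CPM in NS and 211.7, 225.1 and 229.8 CPM in WS. Pdhb (chr14:8165996-8173025, minus strand, 10 exons), the beta subunit, measured 122.4, 123.2 and 123.4 CPM in NS and 109.5, 119.8 and 121.5 CPM in WS. WS replicate 1 was the lowest of the 6 libraries for both genes. Pdha1 groups overlapped, whereas every WS value of Pdhb lay below every NS value. The means of Pdhb were 123.0 ± 0.498 CPM without and 116.9 ± 6.48 CPM with stimulation (SD, n = 3 each), with a log2 fold change of -0.07 (SE 0.07, 95% interval -0.23 to 0.09, unadjusted p = 0.338 by edgeR). The NS libraries of Pdhb agreed more closely (coefficient of variation 0.405%) than counting error alone would give (2.27%), and WS replicate 3 lay close below them. Pdha1 had a log2 fold change of -0.07 (SE 0.07, 95% interval -0.23 to 0.08, unadjusted p = 0.316 by edgeR). Without WS replicate 1 the log2 fold changes were -0.04 for Pdha1 and -0.03 for Pdhb. The Pdha1 to Pdhb ratio was the steadiest of the 4 ratios in WS, at 1.93, 1.88 and 1.89 against 1.97, 1.88 and 1.85 in NS, and the difference of the mean log2 ratio was -0.000255 (SE 0.03, exact two-sided permutation test, p = 1.0).

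**Figure D2:**
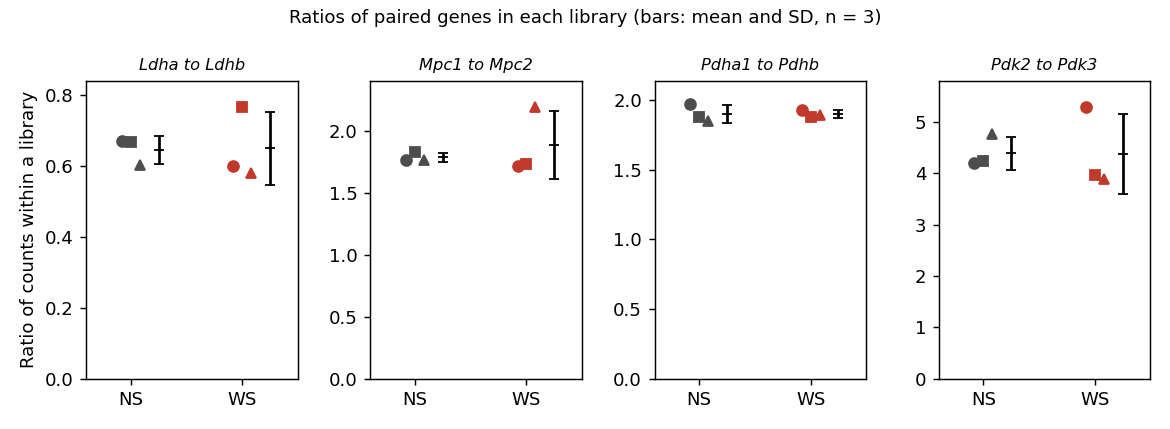
Ratio of counts of 2 genes within each library (vertical axis from 0) for NS (grey) and WS (red); circles, squares and triangles are replicates 1, 2 and 3, and the bars beside them give the mean and SD of 3 libraries. The groups overlap in all 4 panels, and single WS libraries stand apart for Ldha to Ldhb (0.766, replicate 2), Mpc1 to Mpc2 (2.20, replicate 3) and Pdk2 to Pdk3 (5.28, replicate 1).

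Among the kinases, Pdk2 was the predominant transcript. Pdk2 (chr11:95026258-95041354, minus strand, 11 exons), which is broadly expressed, measured 133.4, 132.5 and 139.6 CPM in NS and 156.6, 130.8 and 124.2 CPM in WS. WS replicate 1 was above and WS replicates 2 and 3 were below every NS library, as for Ldha but with another library at the top. The log2 fold change was 0.02 (SE 0.09, 95% interval -0.18 to 0.22, unadjusted p = 0.818 by edgeR), and it became -0.08 without WS replicate 1. Pdk3 (chrX:93764607-93832201, minus strand, 12 exons) measured 31.84, 31.33 and 29.32 CPM in NS and 29.68, 32.97 and 31.90 CPM in WS, with overlapping groups. Its log2 fold change was 0.03 (SE 0.09, 95% interval -0.17 to 0.23, unadjusted p = 0.738 by edgeR). The Pdk2 to Pdk3 ratio was 4.19, 4.23 and 4.76 in NS and 5.28, 3.97 and 3.89 in WS, which overlapped, with a difference of the mean log2 ratio of -0.0168 (SE 0.15, exact two-sided permutation test, p = 1.0).

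Pdk1 (chr2:71873224-71903858, plus strand, 11 exons), the kinase known for its induction by HIF1 in hypoxia, measured 61.97, 63.41 and 61.80 CPM in NS and 56.99, 58.33 and 59.81 CPM in WS. Every WS library lay below every NS library. The means were 62.39 ± 0.884 CPM and 58.38 ± 1.41 CPM (SD, n = 3 each). The log2 fold change was -0.10 (SE 0.08, 95% interval -0.26 to 0.07, unadjusted p = 0.232 by edgeR). Both spreads were smaller than counting error alone would give, at 1.42% in NS and 2.41% in WS against 3.20%. Thus 2 of the 10 members, Pdhb and Pdk1, had all WS values below all NS values, as had 3.16% of all genes tested, and 0 of 10 had all WS values above, as had 3.11%. The count depended on the scaling, in alternatives chosen after seeing the data. It was 1 by library size alone (Pdk1), 2 with RLE factors (Pdhb and Pdk1) and 3 with upper-quartile factors (Pdha1, Pdhb and Pdk1), against 3.27%, 3.28% and 2.98% of all genes tested.

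Pdk4 (chr6:5483351-5496309, minus strand, 11 exons), the kinase induced by fasting and fatty acids in peripheral tissues, was the least abundant member. It measured 10.02, 7.68 and 7.70 CPM in NS and 9.30, 7.24 and 10.23 CPM in WS. The libraries of both groups spread over the same range, at 8.468 ± 1.35 CPM and 8.923 ± 1.53 CPM (SD, n = 3 each). The log2 fold change was 0.08 (SE 0.17, 95% interval -0.29 to 0.44, unadjusted p = 0.656 by edgeR), the widest interval of the 10. Counting error alone gives a coefficient of variation of 8.44% at this level, and the observed values were 15.9% in NS and 17.2% in WS.

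**Figure D3:**
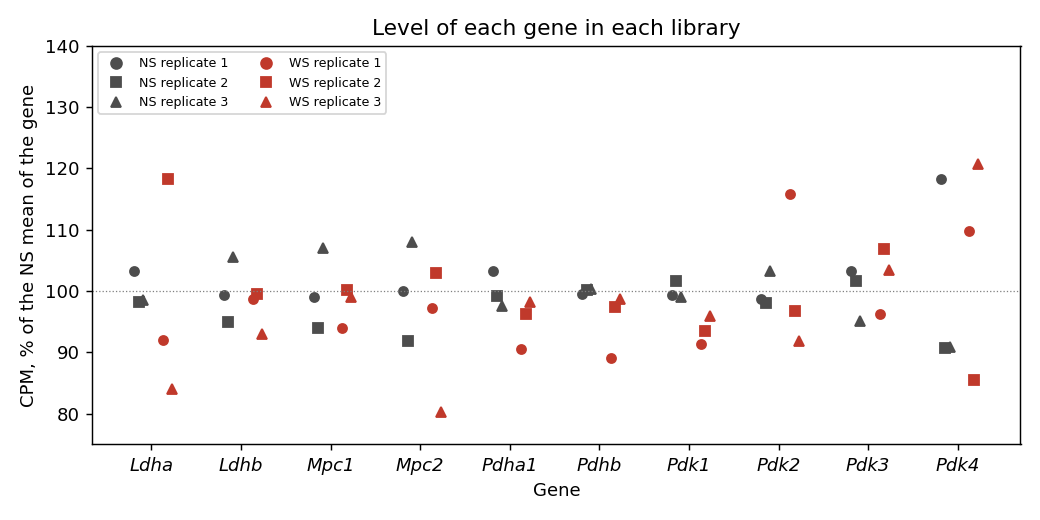
CPM of each gene in each library as a percent of the mean of the 3 NS libraries of that gene (vertical axis from 75 to 140%); grey is NS, red is WS, and circles, squares and triangles are replicates 1, 2 and 3. The red points of Ldha, Mpc2 and Pdk2 spread more widely than the grey ones, and those of Pdhb and Pdk1 all lie below the grey ones.

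Across the members, WS replicates 1 and 3 each gave the lowest of the 6 values for 4 genes, while NS replicate 3 gave the highest for 4. WS replicate 1 was the deepest library and had the lowest TMM factor, 0.9774. It was lowest for Mpc1, Pdha1, Pdhb and Pdk1, and WS replicate 3 was lowest for Ldha, Ldhb, Mpc2 and Pdk2. The part of library composition in these low values was not tested.

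Dividing the level by the length of the principal transcript put the members on a common scale and ordered them by level. In NS, Ldhb was at 381 ± 20.3 CPM per kb and Ldha at 181 ± 5.11, followed by Mpc1 at 136 ± 8.9 (SD, n = 3 each). Then came Pdha1 at 82.2 ± 2.46, Pdhb at 81.3 ± 0.329, Mpc2 at 71.1 ± 5.75 and Pdk2 at 60.2 ± 1.71 CPM per kb, and the ranges of neighbours in this stretch overlapped over the 6 libraries. Pdk3 at 14.6 ± 0.63 and Pdk4 at 2.43 ± 0.387 CPM per kb were lower, with Pdk1 between them at 11.0 to 12.2 CPM per kb over the 6 libraries, and no neighbours overlapped among them. Of the kinase transcripts per length, Pdk2 made up 67.4 ± 1.31% in NS and 67.9 ± 3.32% in WS, Pdk3 16.3 ± 0.835% and 16.7 ± 1.98%, Pdk1 13.5 ± 0.33% and 12.6 ± 1.19%, and Pdk4 2.72 ± 0.432% and 2.86 ± 0.549% (SD, n = 3 each). The middle of this order and the shares per length depend on the gene model. With the length of all annotated exons of a gene together, an alternative chosen after seeing the data, Mpc2 was at 9.93, Pdhb at 31.9 and Mpc1 at 62.5 CPM per kb in NS, while Ldhb (316) and Ldha (96.7) stayed first and Pdk4 (2.41) last.

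**Figure D4:**
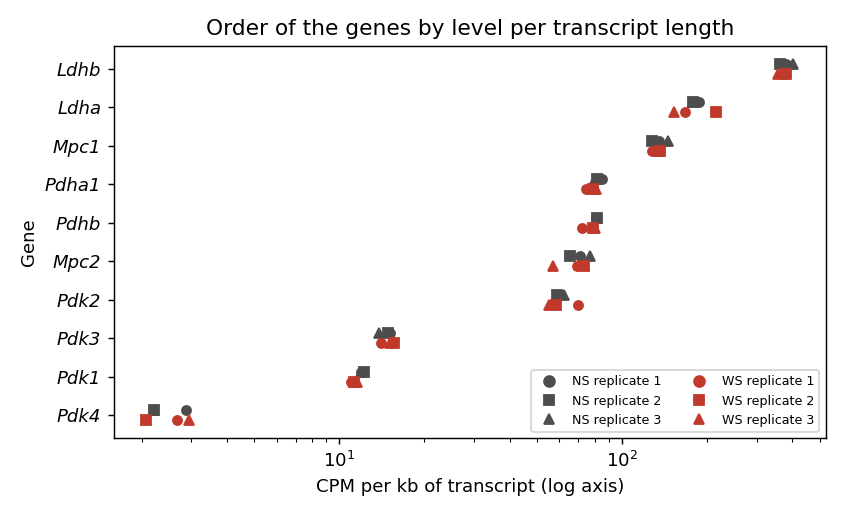
CPM per kb of the principal transcript (logarithmic axis) in each of the 6 libraries, with genes ordered by their NS mean; grey is NS, red is WS, and the marker shapes are replicates 1, 2 and 3. Ldhb, Ldha and Mpc1 lie apart at the top, Pdha1, Pdhb, Mpc2 and Pdk2 overlap, and Pdk4 is lowest.

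Some loci overlap other genes. Pdha1 overlaps Map3k15 and Mpc1 overlaps 4930506C21Rik on the other strand, Pdk2 overlaps the antisense gene Gm11513, and Mpc2 overlaps Gm37860 on its own strand. Whether counting used strand is not given in the sources used here, so reads in the shared stretches cannot be told apart. Past the same identity limits as for Ldha, Mpc1 had 3 copies elsewhere in the genome (the closest, Mpc1-ps, at 99.7% over 34.4% of the transcript), Mpc2 had 1, Pdhb had 1 (Gm6123 at 97.0% over 71.2%) and Pdha1 had 1. The stretches that Mpc1 shares with 4930506C21Rik and Pdha1 with Map3k15 are the overlaps named above, and Map3k15 was itself among the listed genes. Pdk1, Pdk2, Pdk3 and Pdk4 had 0.

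For each member, the gene with the most similar profile over the 6 libraries was found among 10875 others by Pearson's r of log2 CPM. Over so few libraries high values arise by search alone, and they are given as a description. The closest genes were Slc13a4 for Ldha (r = 0.972), Psph for Ldhb (0.998), Fgfr1op2 for Mpc1 (0.990), Ess2 for Mpc2 (0.992), Acsl4 for Pdha1 (0.996), Rundc3b for Pdhb (0.996), Zfp667 for Pdk1 (0.999), Psrc1 for Pdk2 (0.996), Smim10l1 for Pdk3 (0.989) and Klhl32 for Pdk4 (0.974). No member was the closest gene of another.

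No other tested gene of the lists around the pyruvate branch point passed the test, and the lactate dehydrogenase relative Ldhal6b and the pyruvate kinase gene Pklr were listed but fell under the filter on low counts. Of 7 tested genes among the remaining subunits of the pyruvate dehydrogenase complex, its phosphatases and relatives of lactate dehydrogenase, 0 passed the test, with 1 log2 fold change above 0 and 6 below (median -0.061). Dld, the E3 subunit, was at 104.9 ± 3.93 CPM in NS and 96.75 ± 8.63 CPM in WS (log2 fold change -0.12, SE 0.08). Pdp1, the phosphatase that reverses the kinases, was at 166.9 ± 0.178 CPM and 155.5 ± 12.1 CPM (-0.10, SE 0.08), and Pdhx, which binds E3 to the core, was at 48.71 ± 1.95 CPM and 46.50 ± 1.60 CPM (-0.07, SE 0.08, all SD with n = 3). Dld and Pdp1 were lowest in WS replicate 1, as were Pdha1 and Pdhb. Of 7 tested genes that make pyruvate or use it in other ways, 0 passed, with 6 values above 0 and 1 below. Gpt, an alanine transaminase, had a log2 fold change of 0.09 (SE 0.14), malic enzyme Me1 of 0.04 (SE 0.09) and Gpt2 of -0.03 (SE 0.09).

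Downstream of the complex, 0 of 16 TCA cycle genes passed the test, with 6 values above 0 and 10 below (median -0.021). Idh3a, a subunit of isocitrate dehydrogenase, was at 251.3, 246.9 and 243.9 CPM in NS and 231.2, 236.3 and 221.5 CPM in WS. It was the 1 gene of the 16 whose groups did not overlap, against 3.16% of all genes with all WS values below and 3.11% with all above, and its log2 fold change was -0.11 (SE 0.07, unadjusted p = 0.148 by edgeR). The succinyl-CoA ligase subunits Sucla2 (-0.11, SE 0.09) and Suclg2 (0.13, SE 0.10) had log2 fold changes of opposite sign. Of 9 genes of the NADH shuttles, which carry the reducing power that lactate dehydrogenase would otherwise consume, 0 passed, with 3 values above 0 and 6 below, and the smallest unadjusted p-values went with log2 fold changes of -0.07 for Gpd1l (SE 0.07), -0.06 for Slc25a11 (SE 0.08) and -0.04 for Slc25a12 (SE 0.08). Of 10 genes of the mitochondrial outer membrane and import, taken as a measure of mitochondria, 0 passed, with 7 below 0 (median -0.025). Among these Tomm20 had all WS values (323.2, 341.4 and 326.6 CPM) below all NS values (354.3, 351.6 and 346.6 CPM), as had 3.16% of all genes tested. Its log2 fold change was -0.09 (SE 0.07), while the groups overlapped for Timm23 (-0.07, SE 0.09) and Vdac1 (-0.06, SE 0.07).

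Of 10 textbook HIF1 targets outside the group, 1 passed the test. Vegfa, the angiogenic growth factor, rose from 49.99, 52.80 and 49.94 CPM in NS to 99.94, 146.8 and 157.6 CPM in WS (log2 fold change 1.40, SE 0.14, adjusted p = 0.00356 by edgeR). Its adjusted p was 0.0851 without NS replicate 2 and 0.0636 without NS replicate 3 (edgeR), with log2 fold changes of 1.43 and 1.39. The other 9 targets did not pass, and neither did Ldha or Pdk1. Of the 10, 6 had a log2 fold change above 0 and 4 below. Among those below, the glycolytic enzyme gene Pgk1 (log2 fold change -0.09, named after its values were seen) was the 1 gene with all WS values below all NS values, as had 3.16% of all genes tested. Ldha was highest in WS replicate 2 and lowest in WS replicate 3, whereas Vegfa was highest in WS replicate 3 and lowest in WS replicate 1 of the stimulated libraries. Ndrg1 had a log2 fold change of 0.18 (SE 0.08, unadjusted p = 0.0516 by edgeR), and Ankrd37, at 2.145 ± 0.806 CPM in NS and 3.017 ± 0.594 CPM in WS, had one of 0.49 (SE 0.29). The median of the 10 was 0.033. Whether the fold change of Vegfa differs from that of Ldha or Pdk1 was not tested.

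Of 11 PPAR and FOXO targets that share regulators with Pdk4, 0 passed, with 5 above 0 and 6 below. Cd36 was low, at 0.898 ± 0.383 CPM in NS and 0.5923 ± 0.15 CPM in WS, Cpt1a had a log2 fold change of 0.10 (SE 0.10) and Txnip of 0.09 (SE 0.11). Of 8 regulators, 0 passed and 6 were above 0 (median 0.109). Ppard was at 43.81, 43.81 and 43.79 CPM in NS and 51.66, 44.17 and 47.24 CPM in WS (log2 fold change 0.12, SE 0.09). All its WS values lay above all its NS values, as for 3.11% of all genes tested. Its NS values differed by little (SD 0.0138 CPM), and WS replicate 2 lay close above them. Foxo1 (0.18, SE 0.13) and Ppara (0.19, SE 0.19) had larger log2 fold changes with overlapping groups.

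**Figure D5:**
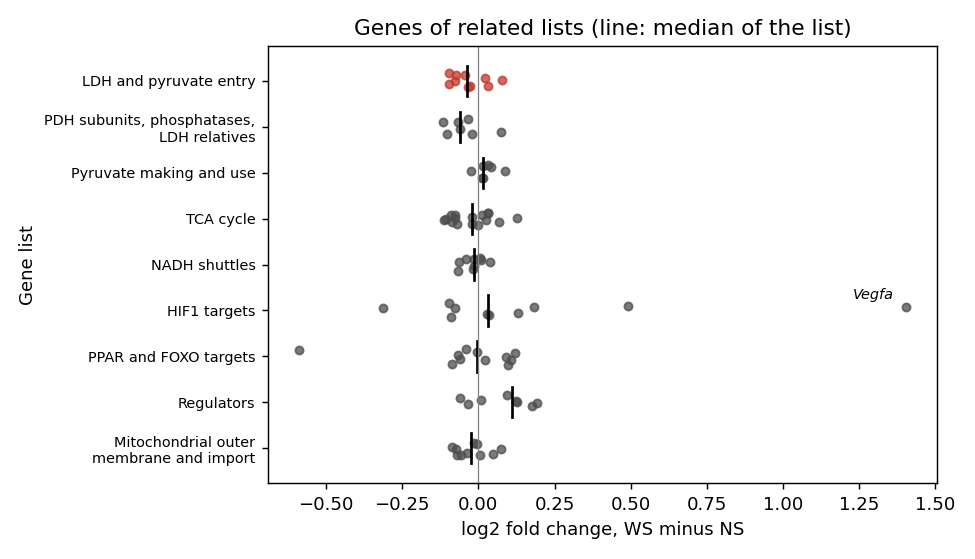
Fitted log2 fold change of WS minus NS (linear axis) for each tested gene of the lactate dehydrogenase and pyruvate entry group (red) and of 8 related lists (grey), with a line at the median of each list; vertical scatter within a list carries no information. Vegfa at 1.40 is the 1 gene that passed the test with all 6 libraries, and the medians lie between -0.061 and 0.109.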

How the data were processed

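Bulk RNA-seq libraries of S1 cortex (3 NS and 3 WS, by the sample titles) were analysed. The titles call the controls NW control, which was taken as NS, the study's name for the side without stimulation. Per the study's methods, reads from rRNA and of low quality were discarded by the authors and the others mapped with HISAT2; the submitters' processing notes name mm10, and the counting tool is not given in the sources used here. The deposited table holds, per gene, a mean on an estimated count scale and its SD. Each library has a score, the z-score of the gene over the 6 libraries as computed by the authors. The header of the column taken as WS replicate 3 reads 3NWS, with an unexplained N. It was matched by its number and because the authors' WS mean column equals the mean of the 3 columns so assigned within 0.000667. Counts were recovered as mean + z-score × SD and rounded. Among 13418 genes with a rounding uncertainty under 0.1 counts, 91.0% of values were whole within 0.1 counts (20.0% expected by chance), and for the 10 genes described the uncertainty was at most 0.301 counts. Columns of the authors' own comparison (fold changes, p-values, ranks) were not used.

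Counts were tested with edgeR 4.0.16 (R 4.3.3; filterByExpr, TMM, quasi-likelihood F test, Benjamini-Hochberg adjustment over 13747 genes; 95% intervals from the fitted SE), and ratios with the exact two-sided permutation test (SciPy 1.17.1). Totals of 15660395 to 17276168 counts per library set the counting error. Fits were tested on simulated data. The simulated libraries for edgeR were independent and held larger changes than the 10 genes showed, so changes as small as theirs were not covered. Alternatives were DESeq2 1.42.0, limma 3.58.1, other scalings and filters, a replicate block and leaving out each library. Same-numbered NS and WS libraries deviated together (r = 0.342, 0.228 and 0.124 over 13747 genes). The numbers were therefore taken to pair the libraries, but only in the replicate block and in the count of same-numbered pairs. All other SEs, intervals and p-values, including those of the ratios, took no account of this pairing. The study used the other side of the brain as the control and 3 mice, but that a number marks 1 mouse comes from the data only. Genes named besides the 10 are, per list, the 3 with the smallest unadjusted p (mean of at least 10 counts), any with an adjusted p under 0.05, and the closest gene to each member (mean of at least 100 counts); Pgk1 falls outside this rule and was named after its values were seen. Genes and lists were chosen with earlier results of these data known. Positions and copies come from GENCODE M21 (BLAST 2.17.0) and promoters from RefSeq.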

Additional observations from a re-analysis of the deposited data

How the results depend on the processing

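No member passed the test under any alternative (adjusted p 0.884 to 1.0, lowest unadjusted p 0.0608, from edgeR, DESeq2 or limma), and in the 80 member alternatives other than leaving out a library 0 changed sign. With the replicate block, which takes same-numbered libraries as paired, 6 genes were called higher and 0 lower against 4 and 0, and no member's call changed. DESeq2 called 5 higher and limma 3. Leaving out 1 library in turn gave 0 to 6 genes higher (0 without NS replicate 2 and 0 without NS replicate 3) and 0 to 1 lower (1 without WS replicate 3). At an unadjusted p under 0.05, 119 were higher and 45 lower.

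Over the same omissions, log2 fold changes lay between -0.192 and 0.073 for Ldha, -0.077 and 0.017 for Mpc1, -0.179 and 0.001 for Mpc2, -0.084 and 0.088 for Pdk2, -0.01 and 0.074 for Pdk3, and -0.033 and 0.214 for Pdk4. The sign turned without WS replicate 1 (Ldha, Pdk2), WS replicate 2 (Pdk3), WS replicate 3 (Ldha, Mpc2, Pdk4) or NS replicate 3 (Mpc1, Pdk3), and the cause was not tested. It stayed below 0 for the other 4 members. Their values lay between -0.079 and -0.002 for Ldhb, -0.1 and -0.041 for Pdha1, -0.102 and -0.028 for Pdhb, and -0.114 and -0.078 for Pdk1. The member median ranged from -0.08 to -0.021. The log2 ratio difference ranged from -0.126 to 0.073 for Ldha to Ldhb, from -0.046 to 0.13 for Mpc1 to Mpc2, from -0.02 to 0.027 for Pdha1 to Pdhb and from -0.158 to 0.061 for Pdk2 to Pdk3, and the difference of linear Ldha to Ldhb ratios was 0.004. In alternatives chosen after seeing the data, 1 member had all WS values below all NS values with library size only, 2 with RLE and 3 with upper-quartile factors, against 3.27%, 3.28% and 2.98% of all genes. Counting error was largest for Pdk4 of the 10 members, at 8.44%, and its spread exceeded that (15.9% in NS and 17.2% in WS).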
